A study of Homo sapiens with 24 samples.

Results

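The transcripts described here are 9 targets of the transcription factor NRF2 in the human lung adenocarcinoma line A549. They are AKR1B10, AKR1C1, AKR1C2, AKR1C3, NQO1, GCLM, GCLC, TXNRD1 and SLC7A11, chosen by name as NRF2 targets that this line expresses highly, and they are 9 of the 60609 rows of the expression table. All 9 were found in the table by symbol, and all 9 passed the filter on low values that left 16062 genes for testing. Because the choice names them as highly expressed, their rank among genes is given below as a description.

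NRF2, encoded by NFE2L2, is a leucine zipper factor that pairs with small MAF proteins and binds antioxidant response elements. KEAP1 is the adaptor that presents NRF2 to a CUL3 ubiquitin ligase for degradation, and electrophiles or oxidants that modify KEAP1 let NRF2 accumulate. A549 carries a loss-of-function mutation in KEAP1 and is known for constant NRF2 activity. The mutation itself was not read here, since the table holds transcript levels and no sequence.

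Polyadenylated RNA was sequenced with a stranded library kit. For 48 h the cells carried either siBOP1, a pool of siRNAs to BOP1, which encodes a factor for maturation of the large ribosomal subunit, or siFLuc, a control that targets firefly luciferase. They were then left untreated (mock) or given IFN-beta at 1000 units/mL, and RNA was taken at 8 h or 12 h. The 2 siRNAs, 2 treatments and 2 times make 8 groups of 3 libraries, 24 in all, and every library, the mock siFLuc ones included, comes from transfected cells. A549 is 1 established line, so the groups describe that line alone. Nothing in the labels says that the 3 libraries of a group came from separate cultures, so p-values measure the spread between these libraries, which may be technical. Values are TPM, transcript abundances that sum to 1000000 in each library, and the depth behind them is unknown.

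The 24 libraries held between 13844 and 14509 genes at 1 TPM or more. The libraries of a group carry the numbers 1, 2 and 4, and those numbered 4 stood apart in several groups, so results that rest on them are also given without them. BOP1 lay between 10.0 and 19.5 TPM in the 12 siBOP1 libraries and between 32.4 and 78.8 TPM in the 12 siFLuc libraries. Its mean was 23.5% to 29.6% of the control mean over the 4 pairs of groups, each with a two-sided exact permutation p of 0.1, the smallest that 3 libraries against 3 can give. Keratin KRT8 (2086 to 3803 TPM) and KRT18 (1785 to 2862 TPM) were abundant in every library, whereas the epithelial marker EPCAM was low, at 1.92 to 5.48 TPM. CDKN2A, deleted in A549, was listed at 0 in all. Of the leukocyte markers, CD3E was listed at 0 in all libraries and PTPRC reached at most 0.021 TPM, while CD14 was at 1.81 to 5.26 TPM. Of the fibroblast markers, COL1A1 was at 5.37 to 19.3 TPM and DCN reached at most 0.334 TPM. In bulk RNA, fewer cells of a kind and less RNA per cell cannot be told apart.

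The sequences shown first are those that bear on how the aldo-keto reductase transcripts can be told from each other. AKR1C1 (GENCODE 29, chr10:4963253-4983283, plus strand), AKR1C2 (chr10:4987400-5018031, minus strand) and AKR1C3 (chr10:5035354-5107686, plus strand) are neighbours on chromosome 10. The lines below give, 5′ to 3′, bases ahead of a RefSeq start of each gene in build GRCh38.p14, at chr10:4963295-4963394 (plus strand), chr10:5003882-5003981 (minus strand) and chr10:5048665-5048761 (plus strand). AKR1C3 has 2 RefSeq starts, and the line and comparisons here use the upstream one. The bases around the downstream one, at chr10:5094164-5094463, were not compared. Capitals mark bases that differ from AKR1C1 in an alignment of the windows.
AKR1C1: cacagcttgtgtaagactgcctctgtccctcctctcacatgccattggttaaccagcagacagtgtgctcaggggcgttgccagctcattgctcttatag
AKR1C2: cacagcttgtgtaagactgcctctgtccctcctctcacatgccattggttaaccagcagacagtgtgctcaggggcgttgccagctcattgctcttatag
AKR1C3: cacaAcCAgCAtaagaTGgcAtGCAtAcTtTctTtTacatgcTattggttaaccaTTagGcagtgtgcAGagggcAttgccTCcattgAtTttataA

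The stretches of AKR1C1 and AKR1C2 are the same over all 100 bases, while 28 of the 97 bases at the upstream AKR1C3 start differ. Over the whole promoter window, 250 bases before to 50 after the start, AKR1C1 and AKR1C2 were 97.3% identical over 296 aligned positions. AKR1C1 and the upstream AKR1C3 window were 75.7% identical over 300 aligned positions. Coding sequences of GENCODE 29 were 98.0% identical between AKR1C1 and AKR1C2, 91.4% between AKR1C1 and AKR1C3, and 91.8% between AKR1B10 and its neighbour AKR1B15. Of all runs of 31 bases in the coding sequence, 71.0% of those of AKR1C1, 70.6% of AKR1C2, 33.0% of AKR1C3 and 46.7% of AKR1B10 also occur in the transcripts of another gene. The values of these 4 genes are therefore uncertain to the extent that reads were split between copies, and the quantification tool is not given in the sources used here. For NQO1, GCLM, GCLC, TXNRD1 and SLC7A11 the share was 0.

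The antioxidant response element core was searched as TGACNNNGC on both strands of the RefSeq windows, of which 7 of the 9 genes have at least 1 (AKR1B10 and SLC7A11 were not matched). The core was present for 2 of these 7 genes, GCLM and TXNRD1, beside 4384 of 27305 genes overall. By window it was in 3 of their 9, or 33.3%, beside 13.3% of all 35116 promoter windows of this length. The bases before the start are shown for both genes, at chr1:93909431-93909550 (minus strand) and chr12:104286912-104287031 (plus strand, the downstream of the 2 TXNRD1 windows), with the match in capitals. Both matches lie on the strand opposite to the gene.
GCLM: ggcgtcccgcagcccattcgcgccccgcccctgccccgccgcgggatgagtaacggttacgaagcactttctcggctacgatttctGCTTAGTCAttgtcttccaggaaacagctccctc
TXNRD1: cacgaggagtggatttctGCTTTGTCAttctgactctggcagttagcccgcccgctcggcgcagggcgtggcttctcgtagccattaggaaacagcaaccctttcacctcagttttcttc

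Read on the strand of the core, the GCLM match is TGACTAAGC and the TXNRD1 match is TGACAAAGC. As printed on the strand of the gene, the first base of the match lies 34 bases before the start in GCLM and 102 bases before it in TXNRD1. The upstream TXNRD1 window held 2 further matches. Among 38 other NRF2 targets, 26 had a window and 13 of those 26 held the core. Response elements of the remaining genes may lie farther out, and a missing match says only that these letters are not in the window.

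Together the 9 transcripts held between 1.01% and 1.30% of all TPM in a library. The mean share was 1.27% ± 0.04 (SD, n = 3) in mock siBOP1 cells at 8 h and 1.03% ± 0.02 (SD, n = 3) in siFLuc cells given IFN-beta for 12 h, the highest and lowest of the 8 groups. The aldo-keto reductases and NQO1, which reduce carbonyls and quinones, were the most abundant. AKR1C2, a hydroxysteroid dehydrogenase, had a mean of 3392 TPM ± 229 (SD, 24 libraries) and ranked 31 among the 16062 genes. AKR1B10, which reduces aldehydes and retinal, had 2585 TPM ± 395 and ranked 46.

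AKR1C3, the type that also makes prostaglandin F, had a mean of 2061 TPM ± 258 (SD, 24 libraries). NQO1 (chr16:69706996-69726951, minus strand), the quinone reductase often used as an NRF2 readout, had 1952 TPM ± 148. AKR1C3 was above NQO1 in 15 of 24 libraries, so the levels of these neighbours in the order did not separate. AKR1C1 (672 TPM ± 120.3) and TXNRD1 (605 TPM ± 80.9; chr12:104215779-104350305, plus strand), the cytosolic thioredoxin reductase, came next, with AKR1C1 higher in 18 of 24 libraries.

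The genes for glutathione supply were lower in level. GCLM, the modifier subunit of glutamate-cysteine ligase (chr1:93885205-93909456, minus strand), had a mean of 112 TPM ± 12.5 (SD, 24 libraries). GCLC, its catalytic subunit (chr6:53497341-53616970, minus strand), had 84.6 TPM ± 15.1. SLC7A11, the cystine-glutamate exchanger that imports the cysteine precursor (chr4:138164097-138242349, minus strand), had 44.5 TPM ± 18.1 and ranked 3167.

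The other neighbours in this order kept it in 24 of 24 libraries. The spread over libraries was widest for SLC7A11, whose highest library was 4.29 times its lowest, and narrowest for AKR1C2, at 1.32 times. The ratio of AKR1C2 to AKR1C1 ran from 3.90 to 6.72 with a median of 5.29, with the shared sequence as the limit on its accuracy. The plot of TPM in every library shows these levels by group.

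**Figure D1:**
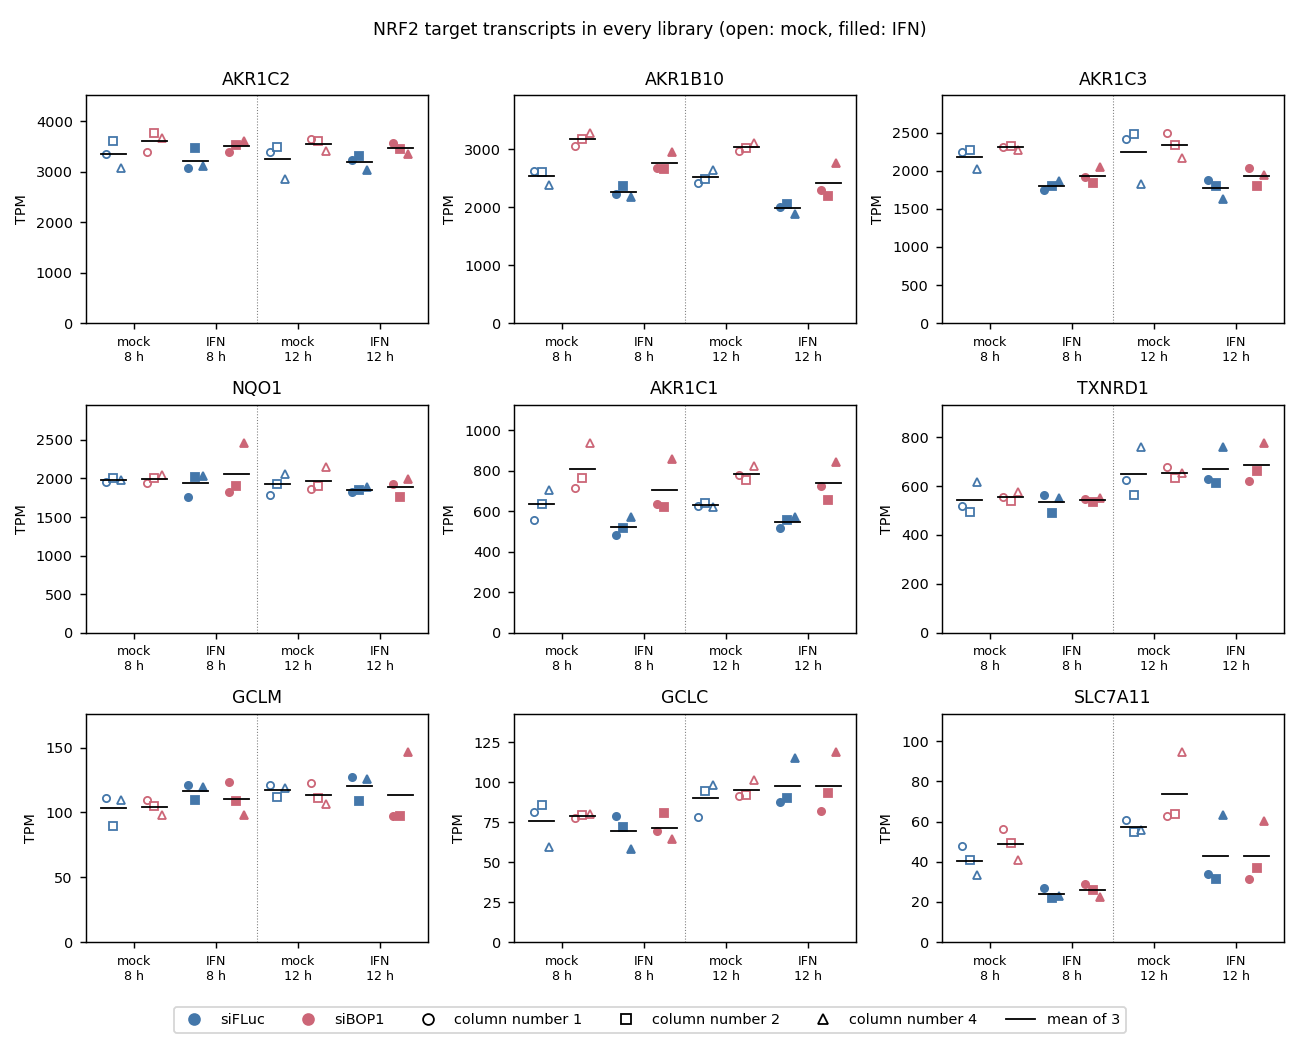
TPM (y axis, from 0) of the 9 transcripts in each of the 24 libraries, by treatment and time (x axis), with siFLuc in blue, siBOP1 in red, mock open, IFN filled, symbols for the library number and a bar for the mean of 3. SLC7A11 lies between 22.1 and 29.1 TPM in the 8 h IFN libraries and between 33.4 and 56.1 TPM in the 8 h mock libraries, and AKR1B10 is higher with siBOP1 than with siFLuc in every pair of groups.

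The first comparison asks what IFN-beta did to these transcripts. SLC7A11, AKR1B10, AKR1C3 and AKR1C1 fell with IFN-beta on average over the 4 comparisons of siRNA and time, and 0 of the 9 rose. SLC7A11 fell the most, by 39.4%, and the 3 reductases fell by 12.4% to 17.8%. NQO1, GCLC, GCLM, TXNRD1 and AKR1C2 did not pass the test. Of all genes tested, 29.0% were lower and 13.0% were higher in this comparison, which are the shares against which the 4 of 9 are read. All tests are from limma on log2(TPM + 1), with p-values adjusted by Benjamini and Hochberg over the 16062 genes and a threshold of 0.05.

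SLC7A11 in siFLuc cells at 8 h was at 47.7, 40.7 and 33.4 TPM in mock libraries 1, 2 and 4, and at 26.9, 22.1 and 23.1 TPM with IFN-beta. At 12 h it was at 60.7, 54.9 and 56.1 TPM in mock libraries and at 33.7, 31.3 and 63.4 TPM with IFN-beta. The groups did not overlap at 8 h, whereas at 12 h IFN library 4 lay above all 3 mock libraries. In siBOP1 cells at 8 h the values were 56.1, 49.3 and 41.0 TPM in mock libraries and 29.1, 26.0 and 22.4 TPM with IFN-beta. At 12 h they were 63.0, 63.9 and 94.6 TPM in mock libraries and 31.6, 36.7 and 60.3 TPM with IFN-beta. Neither siBOP1 pair overlapped. The share of all genes without overlap in a single pair, or in 3 of 4, was not computed.

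Over all 4 comparisons the log2 fold change of SLC7A11 was -0.72 ± 0.12 (SE), adjusted p = 5.13e-05 (limma), and 11 of 12 same-numbered pairs were below 0. For such counts of pairs, here and below, the share over all genes was not computed. The mean log2 difference was -0.88 in libraries 1, -0.83 in libraries 2 and -0.46 in libraries 4. Without the libraries numbered 4 the log2 fold change was -0.86 ± 0.06. As an average this gene had 55.1 TPM ± 15.7 (SD, n = 12) in mock libraries and 33.9 TPM ± 13.9 (SD, n = 12) with IFN-beta.

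AKR1B10 (chr7:134527592-134541408, plus strand) in siFLuc cells at 8 h was at 2622, 2606 and 2384 TPM in mock libraries 1, 2 and 4, and at 2229.5, 2373 and 2179 TPM with IFN-beta. At 12 h it was at 2421, 2484 and 2648 TPM in mock libraries and at 2006, 2063 and 1887 TPM with IFN-beta. Every IFN library was below every mock library at both times. In siBOP1 cells at 8 h it was at 3046, 3183 and 3273 TPM in mock libraries and at 2678, 2652 and 2959 TPM with IFN-beta. At 12 h it was at 2964, 3023 and 3103 TPM in mock libraries and at 2299, 2193 and 2759 TPM with IFN-beta. Here too the groups did not overlap, which makes AKR1B10 lower without overlap in 4 of 4 comparisons, as were 4.28% of all genes tested (5.24% were higher without overlap, and 0 of the 9).

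The log2 fold change of AKR1B10 with IFN-beta was -0.26 ± 0.04 (SE), adjusted p = 1.22e-05 (limma), and 12 of 12 same-numbered pairs were below 0. AKR1C3 had -0.28 ± 0.05, adjusted p = 4.97e-05 (limma), also with 12 of 12 pairs below 0. The mean log2 difference of AKR1C3 was -0.32 in libraries 1, -0.38 in libraries 2 and -0.15 in libraries 4. Without the libraries numbered 4, AKR1B10, AKR1C3 and AKR1C1 stayed called for the average with IFN-beta. In siFLuc cells at 8 h, AKR1C3 was at 2246, 2276 and 2020.5 TPM in mock libraries and at 1744, 1805 and 1868 TPM with IFN-beta. At 12 h it was at 2412, 2481 and 1830.5 TPM in mock libraries and at 1873, 1802 and 1626 TPM with IFN-beta. Mock library 4 at 12 h fell among the IFN values, and the 8 h groups did not overlap.

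In siBOP1 cells at 8 h, AKR1C3 was at 2309.7, 2329 and 2276 TPM in mock libraries and at 1918, 1838 and 2043 TPM with IFN-beta. At 12 h it was at 2489.8, 2335 and 2171 TPM in mock libraries and at 2030.4, 1804 and 1942 TPM with IFN-beta. Both siBOP1 pairs were apart, so AKR1C3 was lower without overlap in 3 of 4 comparisons, a count whose share over all genes was not computed.

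AKR1C1 showed the smallest of the 4 declines, with -0.19 ± 0.06 (SE) on the log2 scale, adjusted p = 0.0157 (limma), with 11 of 12 pairs below 0. The groups overlapped in 3 of 4 comparisons, and siFLuc at 12 h was the exception, with 628, 639.8 and 622 TPM in mock libraries and 516, 556 and 573 TPM with IFN-beta. AKR1C2, which shares most of its coding sequence with AKR1C1, had -0.04 ± 0.04, adjusted p = 0.463 (limma), and its groups overlapped in 4 of 4 comparisons. With the block of labelled replicates 1 and 2 it was called, at -0.07 (-0.065 before rounding), adjusted p = 0.0236 (limma).

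Each TPM value depends on all others in its library, and the median over all genes tested moved by -0.10 on the log2 scale with IFN-beta. A median-of-ratios rescaling of the libraries left that median at -0.02 and changed the split of all called genes from 2084 higher and 4652 lower to 2946 higher and 2965 lower. The 9 transcripts then split into 1 higher and 3 lower. AKR1C1 lost its call under this rescaling, at -0.09, adjusted p = 0.291 (limma), and GCLM gained one, at 0.16, adjusted p = 0.0251 (limma). SLC7A11 (-0.63), AKR1C3 (-0.19) and AKR1B10 (-0.16) kept theirs.

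With IFN-beta NQO1 stood at a log2 fold change of -0.03 ± 0.05 (SE), GCLC of -0.03 ± 0.08, TXNRD1 of 0.01 ± 0.05 and GCLM of 0.07 ± 0.06. None of the 4 passed the test, and for each of them the groups overlapped in 4 of 4 comparisons. The directions of NQO1, GCLC, TXNRD1 and AKR1C2 flipped under at least 1 other scaling, so no direction is given for them. The median of the 9 log2 fold changes was -0.04.

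Taken singly, the 4 IFN comparisons called few of the 9. In siFLuc cells at 8 h limma called 0 (5.07% of genes were lower and 5.77% higher), with 4 at an unadjusted p under 0.05 and SLC7A11 closest, at adjusted p = 0.0553. At 12 h it called AKR1B10 at -0.34 and AKR1C3 at -0.33 (6.43% lower, 7.06% higher). In siBOP1 cells at 8 h it called SLC7A11 at -0.89 (9.11% lower, 5.99% higher), and at 12 h SLC7A11 at -0.80 and AKR1B10 at -0.33 (7.58% lower, 7.17% higher). Several of these single calls rested on 1 library. At 12 h with siFLuc, AKR1C3 lost its call without mock library 1, mock library 2 or IFN library 4, with adjusted p up to 0.115 (limma). At 8 h with siBOP1, SLC7A11 lost its call without mock library 1 or IFN library 4, with adjusted p up to 0.0712 (limma). At 12 h with siBOP1, SLC7A11 lost its call without mock library 4, IFN library 1 or IFN library 2, where it ranged down to -0.61 with adjusted p up to 0.148 (limma). AKR1B10 kept its siBOP1 call at 12 h in all 6 such fits. With the library number as a block within each time, the counts lower were 3, 4, 4 and 3, drawn from SLC7A11, AKR1B10, AKR1C3 and AKR1C1. The block also raised the number of all genes called lower, to 2047, 2532, 3278 and 2661 of 16062.

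**Figure D2:**
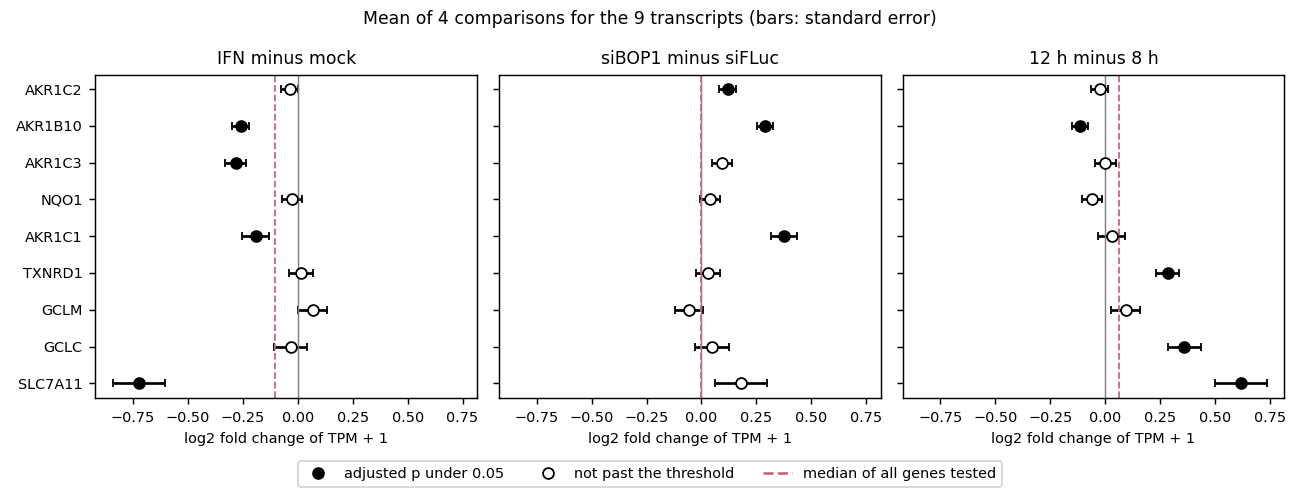
Log2 fold change of TPM + 1 (x axis) with its standard error for the 9 transcripts (y axis, ordered by level), for IFN minus mock, siBOP1 minus siFLuc and 12 h minus 8 h, each the mean of 4 comparisons. Filled points passed an adjusted p of 0.05, and the dashed line is the median of all 16062 genes. SLC7A11 lies at -0.72 with IFN-beta, and AKR1C1 at 0.38 and AKR1B10 at 0.29 with siBOP1.

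The second comparison asks whether depletion of BOP1 changed these transcripts. AKR1C1 rose by 29.8% and AKR1B10 by 22.2% with siBOP1 on average over the 4 comparisons, AKR1C2 passed the test at 8.70%, and 0 of the 9 fell. Of all genes tested, 10.0% were higher and 6.91% were lower. The other 6 transcripts did not pass. The siFLuc and siBOP1 libraries differ in no other labelled factor.

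AKR1C1 in mock cells at 8 h was at 559, 635 and 707 TPM in siFLuc libraries 1, 2 and 4, and at 714, 767 and 939 TPM with siBOP1. With IFN-beta at 8 h it was at 484, 516 and 570.3 TPM in siFLuc libraries and at 635, 619 and 857 TPM with siBOP1. No siFLuc value reached the matching siBOP1 values, and siBOP1 library 4 was the highest each time. In 12 h mock libraries AKR1C1 was at 778, 755 and 823 TPM with siBOP1, against the siFLuc values given above. With IFN-beta at 12 h it was at 726, 653 and 846 TPM with siBOP1.

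AKR1C1 was therefore higher without overlap in 4 of 4 comparisons, as was AKR1B10, and 1.95% of all genes tested met this (0.934% were lower without overlap, and 0 of the 9). The log2 fold change was 0.38 ± 0.06 (SE), adjusted p = 0.000175 (limma), for AKR1C1. For AKR1B10 it was 0.29 ± 0.04, adjusted p = 1.76e-05 (limma). In both, 12 of 12 same-numbered pairs were above 0. Without the libraries numbered 4 the values were 0.32 for AKR1C1 and 0.22 for AKR1B10, and both stayed called.

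The value for AKR1C2 was 0.12 ± 0.04 (SE), adjusted p = 0.0355 (limma), with 12 of 12 pairs above 0. Its groups overlapped in 3 of 4 comparisons, and the exception was IFN at 12 h, with 3241, 3307 and 3039 TPM in siFLuc libraries and 3573, 3447 and 3359.5 TPM with siBOP1. This call was lost in 13 of 24 fits that each left out 1 library, where the adjusted p ranged from 0.021 to 0.0684 (limma). Among those 13 were the fits without library 4 of any of the 4 siFLuc groups. It was also lost at 0.07, adjusted p = 0.161 (limma), without the libraries numbered 4. Median-of-ratios rescaling (limma adjusted p = 0.22), no filter (0.103) and no variance trend (0.085) ended it as well.

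AKR1C3 had 0.09 ± 0.05 (SE), adjusted p = 0.192 (limma), and SLC7A11 had 0.18 ± 0.12, adjusted p = 0.346 (limma). With the block of labelled replicates 1 and 2 SLC7A11 was called, at 0.15, adjusted p = 0.0281 (limma). NQO1 had 0.04 ± 0.05, GCLC 0.05 ± 0.08, TXNRD1 0.03 ± 0.05 and GCLM -0.06 ± 0.06. The median over the 9 was 0.09, beside -0.00 for all genes (-0.0007 before rounding). The sum of the 6 epithelial markers was lower in siBOP1 than in siFLuc libraries in each of the 4 comparisons (5729 to 6348 TPM against 6492 to 7219.8 TPM in mock cells at 8 h), and its part in the reductase values was not tested.

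Taken singly, limma called 1 of the 9 higher in mock cells at 8 h (1.49% of genes were higher and 0.666% lower), AKR1B10 at 0.32 with adjusted p = 0.0287. That count fell to 0 in 5 of 6 fits that each left out 1 library, all but the one without siFLuc library 1. It called 0 in mock cells at 12 h (0.903% of genes higher, 0.697% lower), 0 with IFN-beta at 8 h (1.25% higher, 0.76% lower) and 0 with IFN-beta at 12 h (0.392% higher, 0.268% lower), with 2 of the 9 at an unadjusted p under 0.05 in each. With the library number as a block it called 2 in each of the 4, AKR1B10 and AKR1C1, and the number of all genes called higher rose to 949, 693, 799 and 347 of 16062.

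No difference in the IFN-beta response between siBOP1 and siFLuc cells passed a test of that difference. The interaction of siRNA and IFN-beta called 0 of the 9 at 8 h and 0 at 12 h by limma, with 0 at an unadjusted p under 0.05 at either time. Among all genes it called 0 at both times, with 353 and 259 at an unadjusted p under 0.05. The interaction of SLC7A11 was -0.16 ± 0.34 (SE) at 8 h and -0.32 ± 0.34 at 12 h on the log2 scale, and that of AKR1B10 was -0.03 ± 0.11 and 0.01 ± 0.11. With errors of this size the test does not show that the responses of SLC7A11 were alike.

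**Figure D3:**
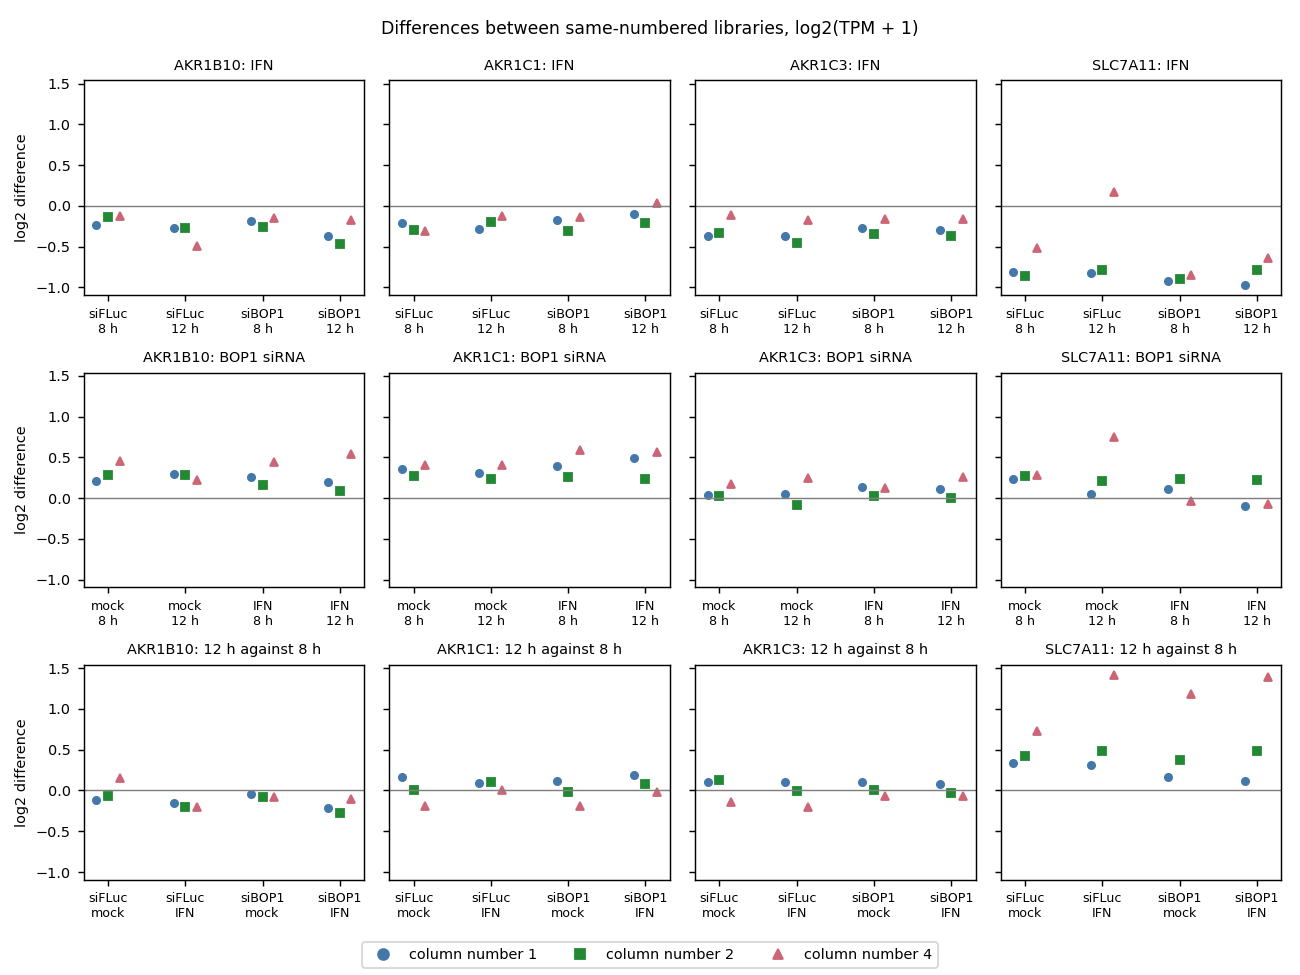
Difference between same-numbered libraries on the log2(TPM + 1) scale (y axis) for AKR1B10, AKR1C1, AKR1C3 and SLC7A11, for IFN minus mock, siBOP1 minus siFLuc and 12 h minus 8 h in the 4 strata (x axis), with a point for each library number. All 12 points of AKR1B10 and of AKR1C3 lie below 0 for IFN-beta, all 12 of AKR1B10 and of AKR1C1 lie above 0 for siBOP1, and SLC7A11 in library 4 stands highest for time.

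The third comparison sets 12 h against 8 h after the start of treatment. SLC7A11, GCLC and TXNRD1 rose by 53.5%, 28.5% and 21.8%, and AKR1B10 fell by 7.66%, while the other 5 did not pass. Of all genes tested, 18.7% were higher and 6.26% were lower, with a median of 0.07. Rescaling by median of ratios changed the split of all called genes from 3002 higher and 1006 lower to 2013 higher and 2162 lower, while the 9 remained at 3 higher and 1 lower.

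For SLC7A11 the 12 h minus 8 h value was 0.62 ± 0.12 (SE), adjusted p = 0.000946 (limma), and was higher at 12 h without overlap in 4 of 4 comparisons, as were 2.1% of genes (0.311% were lower without overlap, and 0 of the 9). The mean difference was 0.23 in libraries 1, 0.44 in libraries 2 and 1.18 in libraries 4. Without the libraries numbered 4 the log2 fold change was 0.34 ± 0.06, adjusted p = 0.00178 (limma), so the size rests in part on them.

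GCLC in siFLuc mock cells was at 81.1, 86.1 and 59.7 TPM at 8 h and at 78.5, 94.5 and 98.4 TPM at 12 h. With siBOP1 in mock cells it was at 77.7, 79.3 and 80.4 TPM at 8 h and at 91.6, 91.8 and 101 TPM at 12 h. The first pair overlapped, and the second did not. In IFN-treated siFLuc cells GCLC was at 78.7, 72.0 and 58.1 TPM at 8 h and at 87.4, 90.3 and 115 TPM at 12 h. In IFN-treated siBOP1 cells it was at 69.3, 80.5 and 64.2 TPM at 8 h and at 81.8, 93.0 and 119 TPM at 12 h. Library 4 was the highest at 12 h in all 4 groups and the lowest at 8 h in 3 of them.

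For GCLC it was 0.36 ± 0.08 (SE), adjusted p = 0.00201 (limma), which was 0.18 ± 0.05, adjusted p = 0.0209 (limma), without the libraries numbered 4. TXNRD1 had 0.28 ± 0.05, adjusted p = 0.000898 (limma), and 0.25 without those libraries, with 12 of 12 same-numbered pairs above 0. TXNRD1 was higher without overlap in 3 of 4 comparisons, as was GCLC, a count whose share over all genes was not computed. In siFLuc mock cells TXNRD1 was at 519, 494 and 617 TPM at 8 h and at 627, 565 and 761 TPM at 12 h, the pair of groups that overlapped.

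AKR1B10 stood at -0.12 ± 0.04 (SE), adjusted p = 0.032 (limma). The call was lost in 3 other settings and in 10 of 24 fits that left out 1 library. NQO1 had -0.06 ± 0.05, AKR1C2 -0.02 ± 0.04, AKR1C3 0.00 ± 0.05, AKR1C1 0.03 ± 0.06 and GCLM 0.09 ± 0.06, with no call. The interaction of IFN-beta and time called 0 of the 9 by limma, with 0 at an unadjusted p under 0.05, and 1 of all genes tested, or 0.00623%. For AKR1B10 that interaction was -0.16 ± 0.08, adjusted p = 0.752 (limma).

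The regulators of the pathway were measured in the same libraries. NFE2L2, which encodes NRF2, stood at 0.24 ± 0.13 (SE, log2) with IFN-beta, adjusted p = 0.133 (limma), and of 0.10 ± 0.13 with siBOP1, adjusted p = 0.674 (limma). With IFN-beta it was called higher under 4 of 9 other settings, the library block and the fit without the libraries numbered 4 among them. It rose between 8 h and 12 h, by 0.43 ± 0.13, adjusted p = 0.0189 (limma), but by 0.11, adjusted p = 0.0471 (limma), without the libraries numbered 4. At 12 h the 4 libraries numbered 4 had 107 to 113 TPM of NFE2L2, against 52.5 to 75.2 TPM in the libraries numbered 1 and 2, while at 8 h all libraries had 46.2 to 66.5 TPM. At 12 h libraries 4 also differed from the mean of the others by -0.04 to 0.94 for SLC7A11 and by 0.14 to 0.44 for GCLC (log2), and the part of NFE2L2 in this was not tested. KEAP1 ranged from 33.6 to 52.1 TPM over the 24 libraries and was not called for IFN-beta, siBOP1 or time, although 4 other settings called it lower at 12 h, one of them the fit without libraries numbered 4 (-0.18).

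Of 16 genes for regulators of NRF2 stability or binding, 3 were higher and 3 lower with IFN-beta (13.0% and 29.0% of all genes), with a median log2 fold change of 0.07. NFE2L3, a relative of NRF2 that binds the same elements, rose from a mean of 9.48 to 64.0 TPM, at 2.64 ± 0.08 (SE; 0.075 before rounding). MAFF, a small MAF partner, rose by 0.78, and BACH1, a repressor that competes for the elements, rose by 0.43. CUL3, the ligase scaffold for KEAP1, fell by 0.44 on the log2 scale, and GSK3B and FBXW11, of the KEAP1-independent route, fell by 0.46 and 0.31. After median-of-ratios rescaling the split was 9 higher and 3 lower, beside 2946 and 2965 of all 16062 genes. With the library block it was 7 and 4, beside 2656 and 6060. With siBOP1, 1 was higher (NFE2L3, 0.35) and 1 lower (SQSTM1, -0.19), beside 10.0% and 6.91% of all genes. SQSTM1, the autophagy receptor that binds KEAP1, lost its call in 12 of 24 fits that left out 1 library.

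Of 38 other NRF2 targets, 8 were higher and 8 lower with IFN-beta (13.0% and 29.0% of all genes). The median was -0.01, beside -0.10 for all genes. The carbonyl reductases CBR3 and CBR1 rose by 0.84 and 0.64 on the log2 scale, HMOX1, the haem oxygenase, by 0.79 and ABCC1, a glutathione conjugate exporter, by 0.42. FECH fell by 0.47, PIR by 0.22, ME1 (malic enzyme, a source of NADPH) by 0.21 and UGDH by 0.21. After median-of-ratios rescaling the split was 12 higher and 2 lower, beside 2946 and 2965 of all 16062 genes. PIR and UGDH were then no longer called.

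With siBOP1, 15 of the 38 were higher and 6 lower (10.0% and 6.91% of all genes), with a median of 0.10. EPHX1, an epoxide hydrolase, rose by 0.61, the taurine transporter SLC6A6 by 0.49, ALDH1A1 by 0.44 and GPX2 by 0.33. HMOX1 fell by 0.87 (SE 0.13), from a mean of 232 TPM in siFLuc to 128 TPM in siBOP1 libraries, and ABCC3, CES1 and PTGR1 fell by 0.32, 0.32 and 0.27. Between 8 h and 12 h, 3 were higher and 6 lower (18.7% and 6.26% of all genes). After median-of-ratios rescaling these counts were 1 and 10, beside 2013 and 2162 of all 16062 genes.

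The glutathione and peroxide list has 29 genes, GCLC and GCLM among them, and 27 were tested. With IFN-beta 3 were higher and 8 lower (13.0% and 29.0% of all genes). After median-of-ratios rescaling 5 were higher and 5 lower, beside 2946 and 2965 of all 16062 genes. GLRX, glutaredoxin, rose by 1.22 on the log2 scale, from a mean of 110 to 255 TPM, with GSTO1 at 0.64 and TXNIP, the thioredoxin inhibitor, at 0.68. GSTA4, CAT (catalase), GGCT and TXNRD2 fell by 0.51, 0.48, 0.32 and 0.29. With siBOP1 8 were higher and 2 lower (10.0% and 6.91% of all genes). TXNIP (0.73), GGT1 (0.60), GPX3 (0.55) and GSTM3 (0.32) led the higher ones, and GSTO1 (-0.17) and GPX1 (-0.16) were lower. TXNIP was not called without siFLuc IFN library 4 at 8 h, nor GPX1 without siFLuc IFN library 1 at 12 h.

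Of 10 other aldo-keto reductase genes 7 were tested. With IFN-beta 6 were lower and 0 higher (29.0% and 13.0% of all genes), with a median of -0.26. AKR1B15, which shares sequence with AKR1B10, fell by 0.41 (-0.405 before rounding), KCNAB2 by 0.49, AKR7A2 by 0.32 and AKR1E2 by 0.26. After median-of-ratios rescaling 3 were lower, beside 2965 of all 16062 genes. With siBOP1, AKR1B15 rose by 0.30, adjusted p = 0.0021 (limma), and AKR1B1, the aldose reductase, fell by 0.21, a call lost in 13 of 24 fits that left out 1 library. AKR1B15 lost that call without the libraries numbered 4, at adjusted p = 0.0511 (limma). Whether reads of AKR1B10 were assigned to AKR1B15 was not tested.

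SLC7A11 is also known as a target of ATF4, the factor of the amino acid response, so 21 ATF4 targets, SLC3A2 and CHAC1 of the lists above among them, were set beside it. With IFN-beta 2 were higher and 4 lower (13.0% and 29.0% of all genes), with a median of -0.18. After median-of-ratios rescaling 4 were higher and 2 lower, beside 2946 and 2965 of all 16062 genes. PSPH and PSAT1, of serine synthesis, fell by 0.65 and 0.54, and XPOT and TRIB3 by 0.37 and 0.27, while VLDLR and CEBPB rose by 0.48 and 0.33. With siBOP1 SLC7A5, the neutral amino acid exchanger, fell from a mean of 446 to 209 TPM, and CEBPB (0.47) and VLDLR (0.42) rose. With the library block the IFN-beta counts were 6 higher and 11 lower, in a fit that called 2656 genes higher and 6060 lower of 16062. VLDLR lost this siBOP1 call in 15 of 24 fits that left out 1 library, PSAT1 its IFN-beta call in 7 and TRIB3 without siFLuc IFN library 1 or 2 at 12 h.

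**Figure D4:**
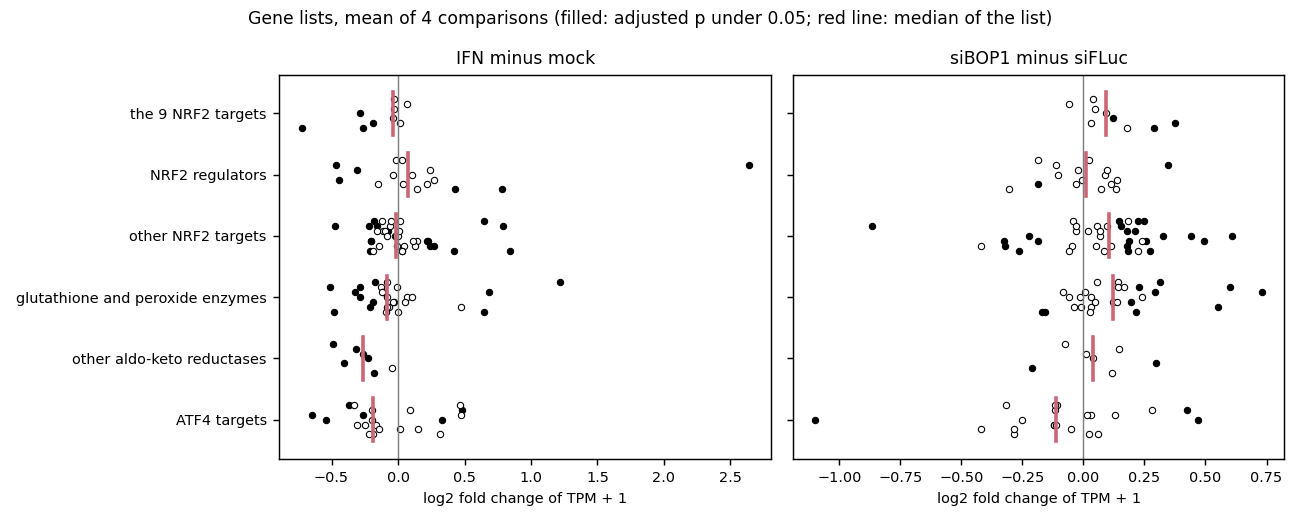
Log2 fold change of TPM + 1 (x axis) of each gene of 6 lists (y axis) for IFN minus mock and siBOP1 minus siFLuc, mean of 4 comparisons, filled where the adjusted p is under 0.05, with the median of each list in red. The 9 NRF2 targets spread around a median of -0.04 with IFN-beta and 0.09 with siBOP1, and NFE2L3 stands at 2.64.

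Across the 24 libraries, genes whose levels were among those most like the mean log2 level of the 9 transcripts were KAT14 (Pearson r = 0.914), SLC45A4 (0.91), AMACR (0.91) and PSPH (0.908), out of 8460 genes with a mean of at least 10 TPM. The 9 were not scaled to equal spread before the mean was taken, and SLC7A11 varied most, by 4.29 times over the libraries. These libraries share groups and scaling, so the values are a description of likeness alone.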

How the data were processed

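The authors deposited TPM values per gene for 24 libraries, each column summing to 1000000, and tool, genome build and annotation of the quantification are not given in the sources used here. Rows carry versioned Ensembl IDs, and 60340 of 60609 took a symbol. The 2 siRNAs, 2 treatments and 2 times gave 8 groups. Columns numbered 1 and 2 match labelled replicates, and the 8 columns numbered 4 match none and were used as members of their group.

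The filter kept genes that reached 1 TPM in 3 or more libraries. They were tested on log2(TPM + 1) with limma 3.58.1 (R 4.3.3), a mean for each group, a variance trend and Benjamini-Hochberg adjustment within each of 14 comparisons. A fold change on this scale understates the change of low genes. The procedure was also run on simulated data. The simulated libraries deviated independently of each other, so that run does not cover the shared deviations given next. Same-numbered libraries deviated together (r from 0.115 to 0.508 over 8 comparisons), so library number served as a block in a second fit. Alternatives changed the pseudocount, filter, scaling, trend, samples and block, and left out each library.

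The 9 genes and all lists were chosen with earlier results of these data known. In each list, up to 4 genes in each direction with the largest called change and at least 5 TPM in a group are named. Sequences are from RefSeq (GRCh38.p14) and GENCODE 29. Protein sequences were not used here, and coding sequences took their place, a choice made after seeing the data. The exact permutation test was used for BOP1 alone. Of the 5 genes most alike over the libraries, 1 is not reported here.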

Additional observations from a re-analysis of the deposited data

How the results depend on the processing

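The counts of called transcripts, higher and lower added, were within 1.5 times of the main fit in the 3 averaged comparisons under every setting run. They ranged from 4 to 5 for IFN-beta, 2 to 4 for siBOP1 and 3 to 4 for time. An equal count can hide a change of members, as with AKR1C1 and GCLM under median-of-ratios rescaling for IFN-beta. The counts of the interactions stayed at 0. The counts of single comparisons moved, given here in the order IFN with siFLuc 8 h, siFLuc 12 h, siBOP1 8 h, siBOP1 12 h, then siBOP1 in mock 8 h, mock 12 h, IFN 8 h, IFN 12 h. A paired analysis with the replicate block of labelled numbers 1 and 2 gave 4, 4, 4, 4, 2, 1, 2 and 1. All genes called lower (IFN) or higher (siBOP1) were then 1824, 2311, 2762, 2641, 491, 300, 597 and 113 of 15558. In the main fit these were 814, 1032, 1464, 1218, 240, 145, 200 and 63 of 16062. The column-number block gave 3, 4, 4 and, for siBOP1, 2 in each, beside the all-gene counts given above. Leaving out the libraries numbered 4 gave 4, 4 and 4 in the first 3, beside 1395, 1841 and 2196 of 15558 genes lower. In mock 8 h, mock 12 h and IFN 8 h it gave 2, 1 and 2, beside 264, 175 and 381 genes higher. Quantile normalization gave 1, 1 and 2 in the first 3, beside 949, 1558 and 1271 of 16062 genes lower. It gave 1 in each of the last 3, beside 210, 226 and 64 genes higher. Median-of-ratios rescaling gave 1, 1 and, at siBOP1 12 h, 1 (512, 803 and 856 of 16062 genes lower), and 0 in mock 8 h (204 genes higher). No filter gave 1 at both 12 h IFN comparisons (833 and 1005 of 33420 genes lower) and 0 in mock 8 h (188 higher). A mean of at least 5 TPM gave 1 at siFLuc 8 h (702 of 10601 lower) and 1 at IFN 8 h (213 higher). A pseudocount of 0.1 gave 1 at IFN 8 h (203 of 16062 higher), and no trend gave 0 in mock 8 h (197 higher). Only the compared groups gave 1 (512 of 14297 lower), 1 (297 of 14400), 0 at siBOP1 12 h (774 of 14467) and 0 in mock 8 h (65 of 14356 higher). Leaving out 1 library gave 0 at siFLuc 8 h, 1 to 2 at siFLuc 12 h, 0 to 2 at siBOP1 8 h and 1 to 2 at siBOP1 12 h. In mock 8 h it gave 0 to 1. The all-gene counts of these fits are not given here. The cause was not tested. Directions that reversed were all of transcripts that were not called. For IFN-beta they were AKR1C2 (0.0591 median-of-ratios, 0.0179 quantile), NQO1 (0.0694, 0.0537), GCLC (0.0629 median-of-ratios), TXNRD1 (-0.0787 quantile) and KEAP1 (-0.0108 with the replicate block or without libraries numbered 4). For siBOP1 they were GCLC (-0.0091, replicate block or without libraries numbered 4) and TXNRD1 (-0.0278 quantile). For time they were AKR1C1 (-0.0563) and AKR1C3 (-0.0853) under median-of-ratios, and AKR1C2 (0.0075, replicate block or without libraries numbered 4). Leaving out 1 library gave TXNRD1 -0.0114 to 0.0424 and KEAP1 -0.0041 to 0.0587 for IFN-beta, AKR1C3 -0.0189 to 0.0359 for time and KEAP1 -0.0107 to 0.0522 for siBOP1. Among the listed genes, IFN-beta calls were lost for PSAT1 and TRIB3 (no filter, median-of-ratios) and for AKR1E2, PIR and UGDH (median-of-ratios). Calls for siBOP1 were lost for CES1 and TXNIP (no filter), GSTM3 (quantile), GPX1 (median-of-ratios), SQSTM1 (no filter, no trend), AKR1B1 (no filter, no trend, quantile), VLDLR (no filter, no trend, both scalings) and AKR1B15 (without libraries numbered 4). Depth is unknown, so counting error could not be set beside these values. A fit on the compared groups alone was not run for the averaged comparisons, which use all groups.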
